A study of Sus scrofa with 12 samples.

Results

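Glutathione peroxidases are enzymes that reduce hydrogen peroxide and lipid hydroperoxides at the expense of glutathione. The family was taken as the rows named GPX1 to GPX8 in a table of gene read counts. All 8 were present among 30640 gene rows. The samples were testis and epididymis of untreated boars of an inbred line of small pigs, the Banna mini-pig (BMI). Each tissue had 5 short-read RNA-seq libraries, and per the file headers replicate 1 to 5 of both tissues came from the same 5 boars. The stated age is 12 months, but per the file headers the boars of replicates 1 to 5 were 12, 12, 11, 17 and 11 months old, and age was not used. The labels name no region of the epididymal duct, and their protocol speaks of mixed samples without saying for which libraries. Another 2 samples, 1 long-read library per tissue, were not analysed here, and the comparison of isoenzymes below is one of genes, not of splice forms.

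Members of the family differ in where they act. GPX1 is the common enzyme of the cytosol and mitochondria, and GPX2 is known from the gut epithelium. GPX3 is secreted and circulates in plasma. GPX4 reduces lipid hydroperoxides inside membranes, protects cells from ferroptosis, and in late spermatids becomes a structural protein of the sperm midpiece. GPX5 is secreted by the epididymal epithelium, mainly in the head of the duct (caput), and binds to sperm. GPX6 is its close relative and is known from the olfactory epithelium, and GPX7 and GPX8 sit in the endoplasmic reticulum, where they take part in protein folding. GPX1 to GPX4 carry selenocysteine in the active site and so depend on selenium supply, whereas GPX5, GPX7 and GPX8 carry cysteine.

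Libraries held 17980578 to 30211957 reads. Levels of a gene between libraries are given as CPM, the count per 1000000 reads of the library, and levels of different genes as TPM, the count per kilobase of the gene length in the files, scaled to 1000000 per library. A count of 0 would allow 3 reads, or 0.0993 to 0.1668 CPM. Epididymis replicate 3 and testis replicate 4 stood apart from the other libraries of their tissues. The chi-square per degree of freedom was 340 to 437 between epididymis replicate 3 and the others of its tissue, against 72.5 to 228 among those, and 152.5 to 198 between testis replicate 4 and the others, against 9.53 to 26.6. Results that rest on either library are given with and without it. Each tissue held its own markers. Leydig cell markers summed to 12144 to 19341 CPM in testis and 26.6 to 33.7 in epididymis, and duct epithelium markers to 28.8 to 44.5 and 1417 to 1972 CPM.

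Testis and epididymis differed in which glutathione peroxidases they expressed. Per length, GPX4 made up 67.9% ± 7.16 (SD, n = 5) of the family in testis, GPX3 26.7% ± 7.70 and GPX1 5.09% ± 1.61. The other 5 genes stayed below 0.4% each in all testis libraries. In the epididymis GPX1 took the place that GPX3 held in testis. In epididymis replicates 1, 2, 4 and 5, GPX4 made up 62.7% ± 2.06 (SD, n = 4), GPX1 26.3% ± 5.36 and GPX3 5.88% ± 0.399. Epididymis replicate 3 was different, with GPX5 at 82.1% of the family, GPX1 at 7.28%, GPX4 at 6.51% and GPX3 at 2.14%. These shares are a description, with no test, and that of GPX1 rests on its gene length in the files.

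**Figure D1:**
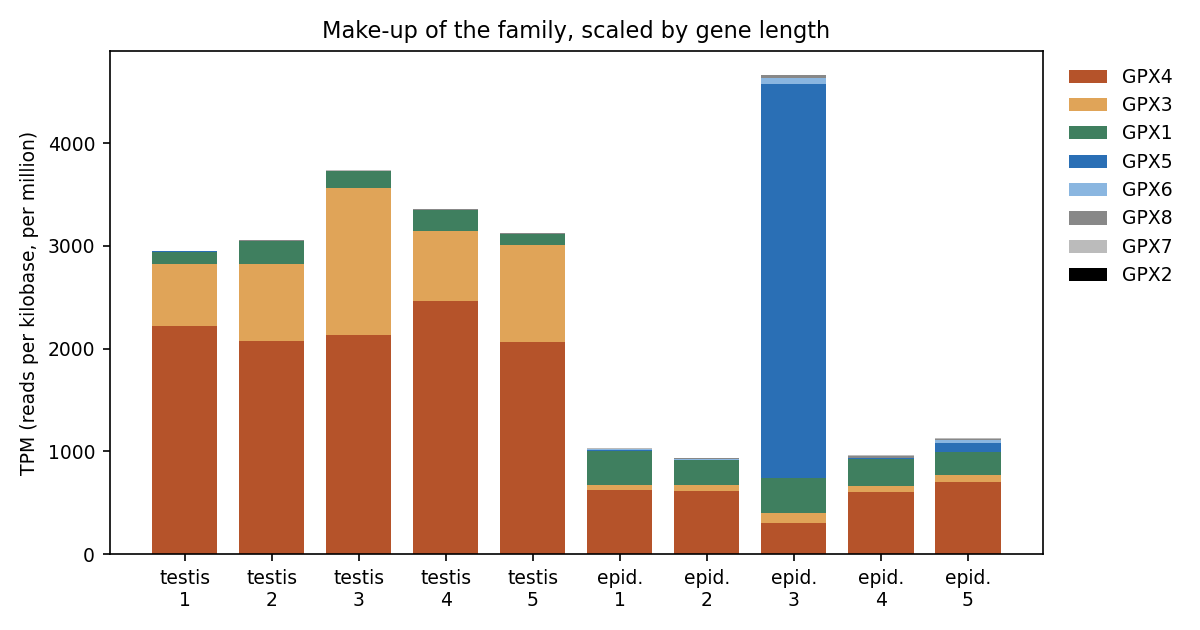
Level of each glutathione peroxidase gene in TPM (counts per kilobase, scaled to 1000000 per library) in each testis and epididymis library, stacked so that the bar height is the family sum. GPX4 (red-brown) and GPX3 (orange) fill the testis bars, GPX4 and GPX1 (green) most of the epididymis bars, and GPX5 (blue) 82.1% of epididymis replicate 3.

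The summed level of the family was 2955, 3059, 3736, 3363 and 3127 TPM in testis replicates 1 to 5 and 1030, 939.6, 4667, 963 and 1132 TPM in epididymis replicates 1 to 5. The highest library of all was thus an epididymis library, and the other 4 of that tissue lay below every testis library. Without GPX5 the sum was 2954 to 3736 TPM in testis and 837 to 1049 TPM in epididymis, a ratio of means of 3.38 with no overlap. In bulk tissue, fewer cells of a type and less RNA per cell cannot be told apart.

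Of the 8 genes, 7 passed the filter on low counts and entered an edgeR quasi-likelihood test across 17225 genes. GPX3 and GPX4 were called higher in testis, and GPX1, GPX5, GPX6 and GPX7 higher in epididymis, at an adjusted p of 0.05. GPX8 was not called and GPX2 was not tested. Calls are common between these tissues. They covered 74.4% of all tested genes, 36.6% higher in testis and 37.8% higher in epididymis, so 6 calls among 7 genes is near the background. The 6 called genes had no overlap between the 5 libraries of each tissue, as had 61.4% of all tested genes, 32.1% with testis above and 29.3% with epididymis above. The median log2 fold change, testis over epididymis, was -0.86 over the 7 genes and -0.07 over all tested genes.

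**Figure D2:**
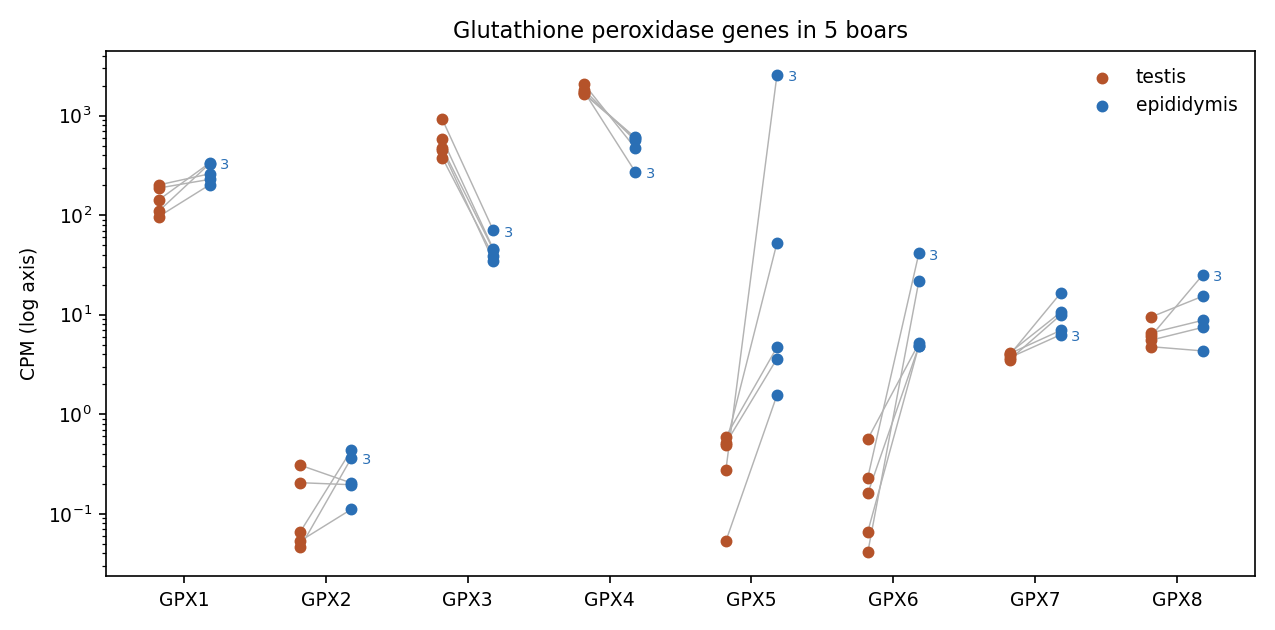
CPM of each gene on a log axis, 1 point per library, with lines joining the testis (red-brown) and epididymis (blue) libraries of the same boar and epididymis replicate 3 marked. GPX3 and GPX4 fell from testis to epididymis in all 5 boars, GPX1, GPX5, GPX6 and GPX7 went the other way in all 5, and GPX5 spans 1.56 to 2577 CPM among epididymis libraries.

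GPX4, the phospholipid hydroperoxide peroxidase (chromosome 2, 77321568 to 77323931), was the most abundant member in testis. It had 1801, 1674, 1738, 2071 and 1653 CPM in testis replicates 1 to 5 and 563, 603, 273, 472 and 595 CPM in epididymis replicates 1 to 5. The testis libraries were close to each other, with a highest over lowest ratio of 1.25, and the groups did not overlap. The log2 fold change was 1.84 ± 0.25 (SE, adjusted p = 3.1e-05 by edgeR). By median TPM, GPX4 ranked 35 among all gene rows in testis and 163 in epididymis. Epididymis replicate 3 had the lowest level, 0.472 times the median of the other epididymis libraries. Its late germ cell markers were the highest of that tissue, at a sum of 654 CPM against 16020 to 21191 in testis. Whether the GPX4 level follows germ cell content was not tested.

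GPX3, the secreted plasma enzyme (chromosome 16, 71980467 to 71989011), had the larger difference of the 2 family members called higher in testis. It had 378, 472, 919, 450 and 586 CPM in testis replicates 1 to 5 and 38.8, 44.8, 70.3, 34.8 and 45.6 CPM in epididymis replicates 1 to 5. Replicate 3 was the highest library in both tissues, and the lowest testis library stood far above the highest epididymis library. Mean levels were 561 ± 213 and 46.9 ± 13.8 CPM (SD, n = 5 each), with a log2 fold change of 3.61 ± 0.31 (SE, adjusted p = 8.5e-07 by edgeR). Within boars the log2 difference, with 0.5 CPM added, was 3.27, 3.38, 3.70, 3.67 and 3.67.

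GPX1, the cytosolic enzyme (chromosome 13, 31916269 to 31917337), had 109, 201, 142, 187 and 96.4 CPM in testis and 329, 260, 334, 229 and 201 CPM in epididymis replicates 1 to 5. The groups did not overlap, but by little: testis replicate 2 stood at 200.8 CPM and epididymis replicate 5 at 201.5. The log2 fold change was -0.86 ± 0.25 (SE, adjusted p = 0.00815 by edgeR), the smallest among the called members. With testis replicate 4 alone standing for testis it was -0.43 and not called (adjusted p = 0.405 by edgeR). The ratio of GPX1 to GPX3 per length was 0.110 to 0.304 in testis and 3.17 to 6.07 in epididymis. The gene length in the files is 2131 bases, longer than the 1069 bases that RefSeq gives this gene, and its TPM rests on that length. The gene RHOA starts 1146 bases beyond it in the RefSeq table.

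GPX7 and GPX8, the enzymes of the endoplasmic reticulum, were low in both tissues. GPX7 (chromosome 6, 159590479 to 159598768) had 3.54 to 4.14 CPM in testis and 9.93, 10.6, 6.29, 6.95 and 16.5 CPM in epididymis replicates 1 to 5. All epididymis libraries lay above all testis libraries, with a log2 fold change of -1.37 ± 0.30 (SE, adjusted p = 0.00126 by edgeR). GPX8 (chromosome 16, 34336154 to 34341861) had 4.76, 5.56, 6.16, 9.51 and 6.57 CPM in testis and 4.33, 7.45, 25.0, 15.3 and 8.76 CPM in epididymis. The groups overlapped, and the log2 fold change of -0.86 ± 0.40 was not called (SE, adjusted p = 0.0712 by edgeR). It was called without epididymis replicate 1 (log2 -1.05, adjusted p = 0.022 by edgeR). Without epididymis replicate 3, its highest library, the log2 fold change of GPX8 was -0.45 (adjusted p = 0.228 by edgeR). Without epididymis replicates 3 and 4 it was -0.13 (adjusted p = 0.704 by edgeR). In the RefSeq table GPX8 lies wholly within the span of CDC20B, so reads of the pair may not be separable. With testis replicate 4 alone standing for testis GPX7 was not called (log2 -1.22, adjusted p = 0.215 by edgeR).

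GPX2, the gut enzyme (chromosome 7, 89007636 to 89011620), was at the limit of detection. It had 6, 2, 1, 1 and 5 reads in testis and 4, 8, 8, 2 and 4 reads in epididymis replicates 1 to 5. At this depth GPX2 did not pass the filter on low counts, so no call on a difference was made. The gene lies wholly within the span of CHURC1 in the RefSeq table, so reads of the pair may not be separable.

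GPX6 and GPX5 are neighbours on chromosome 7, at 22256013 to 22267992 and 22289432 to 22300727, with 21439 bases between them and no other gene there in the RefSeq table. Both were nearly silent in testis, with 0.0411 to 0.564 CPM of GPX6 and 0.0534 to 0.596 CPM of GPX5. Some of these values rest on 1 to 3 reads. In epididymis replicates 1 to 5, GPX6 had 5.14, 4.87, 41.3, 4.84 and 21.7 CPM and GPX5 had 3.61, 4.71, 2577, 1.56 and 52.7 CPM. Replicate 3 was the highest and replicate 5 the next for both genes. ZBED9, the next protein-coding gene on the GPX5 side, had 0.88 to 2.23 CPM in epididymis and 0.29 to 0.59 CPM in testis.

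The log2 fold change of GPX6 was -6.19 ± 0.91 (SE, adjusted p = 6.0e-05 by edgeR), and -5.49 without epididymis replicate 3 (adjusted p = 2.6e-05 by edgeR). With testis replicate 4 alone standing for testis its call was lost (log2 -6.44, adjusted p = 0.0557 by edgeR). For GPX5 the log2 fold change was -10.28 ± 2.35 (SE, adjusted p = 0.00178 by edgeR). It was -5.32 without epididymis replicate 3 (adjusted p = 0.000503 by edgeR) and -5.67 with the boar as a block (adjusted p = 0.0094 by edgeR). With testis replicate 4 alone, which held 1 read of GPX5, it was -12.95 and not called (adjusted p = 0.219 by edgeR). All epididymis libraries still lay above all testis libraries. The mean of the epididymis libraries was 1366-fold that of testis, and 40.5-fold without replicate 3. The median of the epididymis libraries was 9.56-fold that of testis. Within boars the log2 difference, with 0.5 CPM added, was -2.02, -2.25, -11.69, -1.89 and -5.74 for replicates 1 to 5. The size of the GPX5 difference therefore rests mainly on epididymis replicate 3 and, without it, on replicate 5, but its direction does not.

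**Figure D3:**
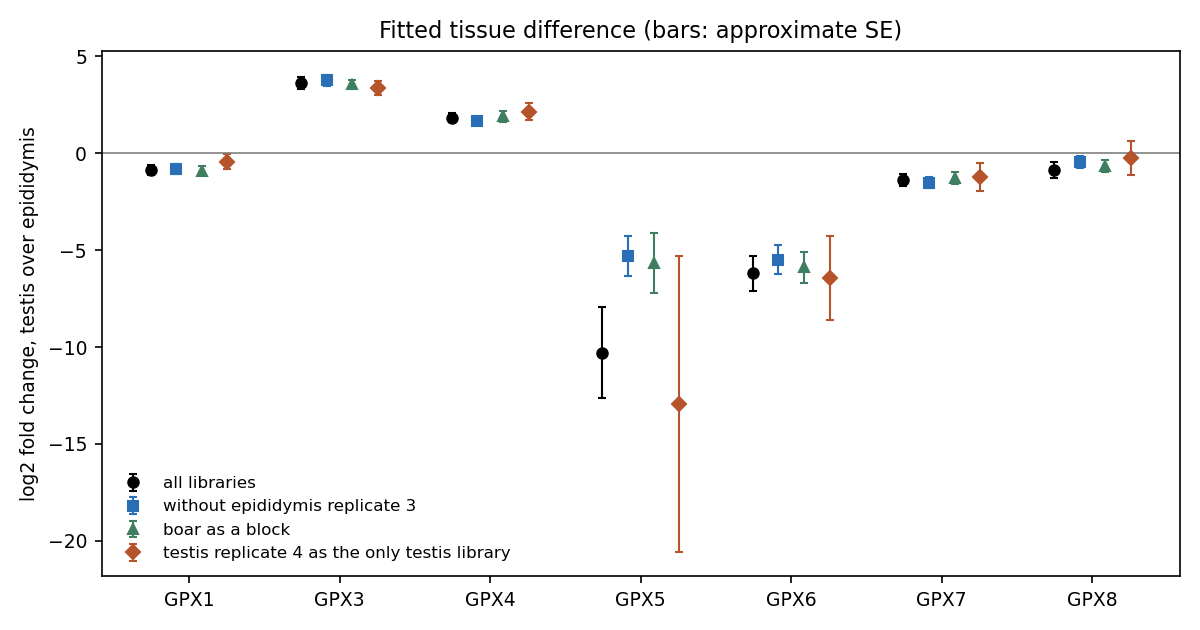
Fitted log2 fold change, testis over epididymis, of the 7 tested genes with approximate standard errors, for all libraries, without epididymis replicate 3, with the boar as a block and with testis replicate 4 alone standing for testis. GPX5 moves from -10.28 to -5.32 without epididymis replicate 3, and the sign of each gene is the same in all 4 fits.

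GPX5 varied more over the epididymis libraries than any other member. Its highest library held 1655 times its lowest, against 8.53 for GPX6, 5.77 for GPX8 and 1.66 to 2.63 for the other 5. Replicate 3 held 97.8% of all GPX5 reads of the tissue, and GPX5 was its gene of rank 23 by CPM. The value of replicate 3 was 48.9 times that of the next library. Without replicate 3 the ratio of highest to lowest was still 33.9, set by replicate 5 with 52.7 CPM against 1.56 to 4.71 in the other 3. Without replicate 4, the lowest library, it was 713.

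Among 9855 other genes with a mean of at least 10 CPM in the epididymis, 18 had a ratio as high as that of GPX5. Genes near 10 CPM cannot reach such a ratio over the floor of 3 reads. Of 484 other genes with a mean of 0.5 to 2 times that of GPX5, 5 had a ratio as high. The mean of GPX5 itself, 528 CPM, rests on replicate 3, since it was 15.7 CPM without it. In these ratios a lowest count under 3 reads was raised to 3 reads. Among genes with at least 10 CPM on average, 84 were over 10-fold higher in replicate 3 than in each other epididymis library. The same count was 0, 0, 9 and 4 for replicates 1, 2, 4 and 5. Of the 8 members, 5 were highest in replicate 3 (GPX1, GPX3, GPX5, GPX6 and GPX8), and 31.9% of all tested genes were.

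Genes known from the initial segment and caput of rodents, the proximal parts of the duct, were also highest in epididymis replicate 3. Of 15 listed genes 11 had a row, and 10 of these were highest in that library. Their summed level was 12469 CPM there, 636 to 1280 CPM in the other epididymis libraries and 7.45 to 12.5 CPM in testis. RNASE10, a secreted protein of the RNase A family, had 5909 CPM against 6.12 to 16.0 in the other 4 libraries, and OVCH2, a serine protease of the duct, 1938 against 0.0556 to 0.329. ROS1, the receptor kinase required for the initial segment, had 529 against 1.37 to 16.2 CPM. LCN8, a lipocalin, was the exception, with 68.5 CPM in replicate 3 and 35.5 to 72.6 in the others. Epididymis replicate 5, the next in GPX5, was not next in this summed level: it had the lowest, 636 CPM.

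**Figure D4:**
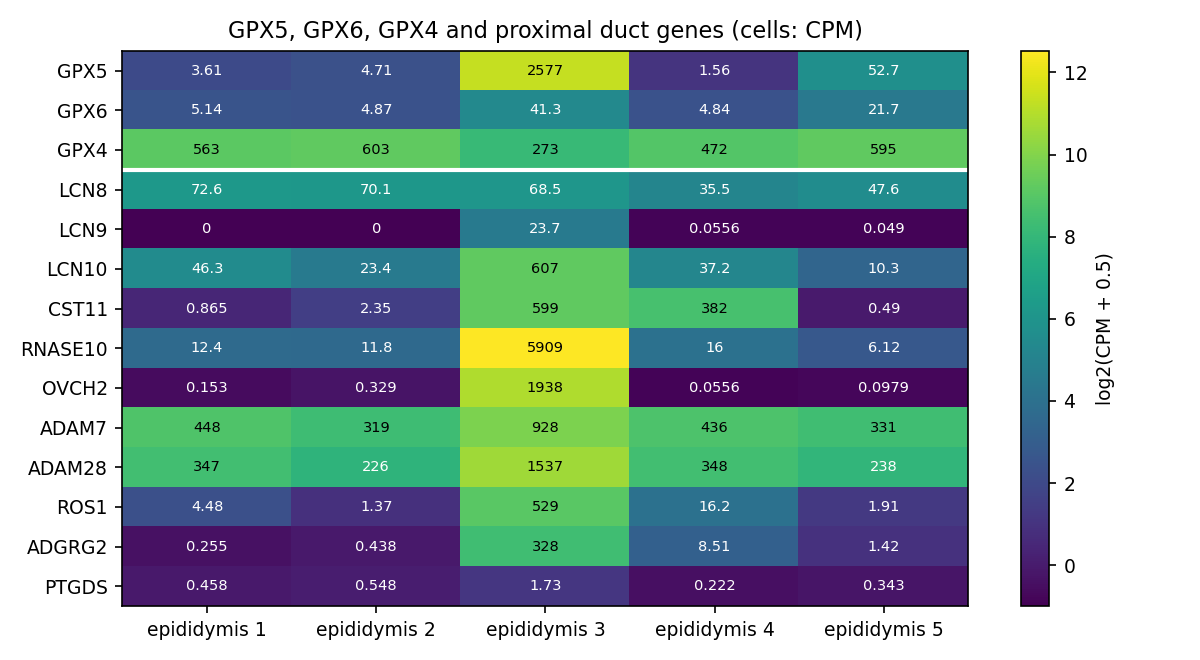
CPM of GPX5, GPX6 and GPX4 (above the white line) and of 11 genes known from the proximal duct of rodents in the 5 epididymis libraries. Cell colour gives log2(CPM + 0.5), and replicate 3 has the highest value for GPX5, GPX6 and 10 of the 11 genes, but the lowest for GPX4.

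Markers of other cells moved in that library too. The 12 late germ cell markers were all highest in epididymis replicate 3, with a sum of 654 CPM against 74.2 to 155 in the other epididymis libraries and 16020 to 21191 in testis. Of 5 clear cell markers, 4 were highest there, with a sum of 29.2 CPM against 0 to 8.68. Basal cell markers summed to 413 CPM there and 681 to 1164 in the others, with KRT14 at 126 CPM against 600.4 to 864, although 2 of the 4 were highest there. The 5 efferent duct markers summed to 106 CPM there and 130 to 562 in the others. SLC9A3, a sodium-proton exchanger, had 7.66 CPM there and 56.8 to 519 in the others, whereas ESR1 was highest there, AQP1 at 88.3 CPM lay within the range of the others, FOXJ1 was lowest and CAPS had no reads in the tissue. Fibroblast markers summed to 5173 CPM there and 1451 to 4026 in the others, with 4 of 5 highest there, and endothelial markers to 494 and 189 to 378 CPM. HOXA11, the one marker of the distal duct with a row, had 0 reads there and 0.865 to 3.67 CPM in the others. Duct epithelium markers summed to 1620 CPM, within the range of the other libraries. The part of these differences in the GPX5 level was not tested.

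Genes whose pattern over the 5 epididymis libraries was nearest to that of GPX5 were sought by the root mean square difference of centred log2(CPM + 0.5) values, among 9141 genes with a symbol and at least 10 CPM on average. Among the 10 nearest were SLC1A1 (a glutamate and cysteine transporter), CLDN14 (a claudin), TEDDM1 (a membrane protein known from the epididymis) and DEFB121 (a beta-defensin), at 1.55 to 1.63 log2 units, and CHRNA4, PVALB, CRYBA4 and RBM11, at 1.64 to 1.75. All 10 peaked in replicate 3, such as TEDDM1 with 8947 CPM against 2.28 to 5.73 and SLC1A1 with 983 CPM against 0.356 to 0.734. GPX6 was at place 83 of this ranking, GPX3 at 852, GPX1 at 2976 and GPX4 at 8163. The likeness is over 5 libraries and rests mainly on 1 of them.

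The order of the members within a tissue was clear at the top and not at the bottom. In testis the TPM ranges did not overlap from GPX4 (2069 to 2463) to GPX3 (596 to 1438), GPX1 (110.4 to 228), GPX8 (5.45 to 10.5) and GPX7 (1.95 to 2.29), whereas GPX5, GPX6 and GPX2 overlapped at 0.0720 to 0.987. In the epididymis GPX4 lay above GPX1 in 4 of 5 libraries, with 304 against 340 TPM in replicate 3, and GPX1 lay above GPX3 in all 5. The order of GPX4 and GPX1 rests on the length of GPX1 in the files, which is longer than its RefSeq span. GPX3 in turn lay above GPX8 in all 5, at 54.6 to 99.9 against 4.41 to 25.7 TPM. GPX8, GPX6, GPX5 and GPX7 had median levels of 9.62, 8.68, 6.40 and 4.81 TPM, with overlapping ranges. GPX6 lay above GPX7 in all 5 libraries, and every other pair among them changed order between libraries.

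Glutathione is built from cysteine, glutamate and glycine, oxidised by the peroxidases and reduced again with NADPH. Of 20 tested genes for its synthesis, recycling and breakdown, 6 were called higher in testis and 8 in epididymis, against 36.6% and 37.8% of all tested genes, with a median log2 fold change of -0.74. The counts of the lists that follow are read against the same shares and the median of -0.07 over all tested genes, and none was tested for enrichment. GSS, glutathione synthetase, stood at 25.3 ± 4.25 CPM in testis libraries and 53.7 ± 3.89 CPM in those of the epididymis (SD, n = 5, log2 -1.06 ± 0.17, adjusted p = 0.00012 by edgeR). GSR, the reductase that recycles glutathione, had 26.3 ± 6.99 against 48.2 ± 14.3 CPM (adjusted p = 0.00781 by edgeR), and CNDP2, a dipeptidase that splits cysteinylglycine, 156 ± 23.8 against 375 ± 149 (adjusted p = 0.00077 by edgeR). GCLC, the catalytic subunit of the enzyme that makes the first bond of glutathione, had 11.4 ± 1.83 against 37.2 ± 14.3 CPM (adjusted p = 0.00011 by edgeR).

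Higher in testis were SLC3A2, the heavy chain of amino acid transporters, with 395 ± 188 against 107 ± 30.8 CPM (adjusted p = 0.00034 by edgeR), OPLAH, which recovers glutamate from 5-oxoproline, with 314 ± 30.5 against 84.7 ± 42.5 (adjusted p = 0.00034 by edgeR), and PGD, an enzyme that makes NADPH, with 287 ± 48.6 against 127 ± 30.1 (adjusted p = 0.00051 by edgeR).

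The selenoproteins GPX1 to GPX4 need selenium, carried by SELENOP, and a machinery that reads a stop codon as selenocysteine. Of 11 tested genes for supply and insertion, 6 were called higher in testis and 3 in epididymis (36.6% and 37.8% over all genes), with a median log2 fold change of 0.55. SELENOP, the plasma selenium carrier, had 308 ± 126 against 95.2 ± 41.4 CPM (adjusted p = 0.00041 by edgeR, log2 fold change 1.72 ± 0.32), with 526 CPM in testis replicate 4 and 205 to 290 in the other testis libraries. EEFSEC, the elongation factor for selenocysteine, had 83.4 ± 5.37 against 18.9 ± 2.02 CPM (adjusted p = 2.3e-07 by edgeR, log2 fold change 2.16 ± 0.15), and SECISBP2, which binds the signal in selenoprotein mRNAs, 128 ± 25.0 against 59.4 ± 9.36 (adjusted p = 0.00014 by edgeR). SECISBP2L, its paralog, went the other way, with 30.9 ± 3.25 against 96.8 ± 49.8 CPM (adjusted p = 0.00058 by edgeR). SEPSECS, which makes selenocysteine on its tRNA, was not called (adjusted p = 0.280 by edgeR), but it was without epididymis replicates 3 and 4 (log2 0.70, adjusted p = 0.014 by edgeR).

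The receptors for SELENOP differed between the tissues. LRP8, the receptor known from testis, was called higher in testis, with 24.5 ± 1.40 against 10.5 ± 4.16 CPM (adjusted p = 0.0023 by edgeR). LRP2, a large endocytic receptor of epithelia, had 15.7 ± 2.80 CPM in testis and 46.8, 35.5, 5.65, 106 and 201 CPM in epididymis replicates 1 to 5 (adjusted p = 0.00872 by edgeR, log2 fold change -2.32 ± 0.68). Epididymis replicate 3, the library with most GPX5, thus had the lowest LRP2 level, below every testis library. The call was lost with the boar as a block (log2 -1.69, adjusted p = 0.0701 by edgeR). SEPHS1, a paralog of the selenophosphate synthetase, was called higher in epididymis (adjusted p = 0.0358 by edgeR, log2 fold change -0.41 ± 0.16), a call that ended without any single library except testis replicate 4 or epididymis replicate 5 (adjusted p of 0.0528 to 0.168 by edgeR) and with the boar as a block (0.092), no filter (0.0824), DESeq2 size factors (0.128) or DESeq2 (0.108).

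Of 16 other selenoproteins tested, 4 were called higher in testis and 7 in epididymis (36.6% and 37.8% over all genes), with a median log2 fold change of -0.62. SELENOV, a selenoprotein of testis, had 385, 340, 367, 155 and 342 CPM in testis replicates 1 to 5 and 0.147 to 3.74 CPM in epididymis (adjusted p = 3.6e-06 by edgeR, log2 fold change 8.27 ± 0.84). TXNRD3, the thioredoxin-glutathione reductase of spermatids, had 272 ± 25.2 against 68.8 ± 34.3 CPM (adjusted p = 0.00016 by edgeR), and TXNRD1, the cytosolic thioredoxin reductase, 162 ± 49.4 against 69.4 ± 18.0 (adjusted p = 0.00055 by edgeR). In epididymis, SELENOF and SELENOS, proteins of the endoplasmic reticulum like GPX7 and GPX8, were higher, with 456 ± 81.2 against 84.9 ± 34.3 CPM (adjusted p = 5.7e-06 by edgeR) and 132 ± 36.6 against 33.2 ± 25.3 CPM (adjusted p = 0.00073 by edgeR). SELENOT had 102 ± 34.8 against 59.5 ± 22.9 CPM (adjusted p = 0.0297 by edgeR). Its call ended without testis replicate 1, 2, 3 or 5 or epididymis replicate 4 or 5 (adjusted p of 0.056 to 0.111 by edgeR), and also with DESeq2 size factors (0.0642) or DESeq2 (0.0782), and its direction turned with testis replicate 4 alone (log2 0.07). MSRB1, a methionine sulfoxide reductase, was not called (adjusted p = 0.202 by edgeR).

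Around GPX4, genes that set how easily membrane lipids are oxidised and how iron is held went both ways. Of 11 tested, 3 were called higher in testis and 3 in epididymis (36.6% and 37.8% over all genes), with a median log2 fold change of 0.57. ACSL4, which loads polyunsaturated fatty acids into membranes, had 411 ± 180 CPM in epididymis against 38.5 ± 12.2 (adjusted p = 4.0e-06 by edgeR, log2 fold change -3.40 ± 0.35), and the lipoxygenases ALOX5 and ALOX15 were called in the same direction. LPCAT3, which acts after ACSL4, was higher in testis with 88.8 ± 16.9 against 23.4 ± 11.8 CPM (adjusted p = 9.5e-05 by edgeR). AIFM2, a ferroptosis suppressor beside GPX4, had 217 ± 31.8 against 77.4 ± 28.8 CPM (adjusted p = 0.00043 by edgeR), and NCOA4, which releases iron from ferritin, 120 ± 24.8 against 69.2 ± 17.2 (adjusted p = 0.00339 by edgeR). FTL, the ferritin light chain, was not called, at 1869 ± 270 and 1492 ± 567 CPM. The count higher in testis was 5 with the boar as a block, 5 without epididymis replicate 3 and 6 without epididymis replicates 3 and 4.

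Of 9 genes of the NRF2 pathway, the oxidant response that turns on GPX2 and the glutathione genes, 5 were called higher in testis and 3 in epididymis (36.6% and 37.8% over all genes), with a median log2 fold change of 0.50. NFE2L2, NRF2 itself, had 148 ± 8.32 CPM in epididymis against 32.2 ± 9.13 in testis (adjusted p = 8.1e-07 by edgeR, log2 fold change -2.19 ± 0.18), and its partners MAFK and MAFF were also called higher in epididymis. NQO1, an often used target of the pathway, went against them, with 91.8 ± 32.0 CPM in testis and 11.03 ± 2.39 in epididymis (adjusted p = 1.0e-06 by edgeR, log2 fold change 3.07 ± 0.27). NFE2L1, a relative of NRF2, had 623 ± 121 against 403 ± 61.8 CPM (adjusted p = 0.0111 by edgeR). KEAP1, the inhibitor of NRF2, was called higher in testis (adjusted p = 0.0275 by edgeR, log2 fold change 0.50 ± 0.18). It lost the call without epididymis replicate 1, 2 or 4 (adjusted p of 0.0526 to 0.0762 by edgeR) and with the boar as a block (0.0825). The count higher in testis was 3 with the block, and 3 without epididymis replicate 2 or 4. MAFG was not called (adjusted p = 0.758 by edgeR).

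GPX5 is known as an androgen-responsive gene whose promoter binds ETS factors. Of 7 tested genes of the androgen axis and ETS factors, 3 were called higher in testis and 3 in epididymis (36.6% and 37.8% over all genes), with a median log2 fold change of 0.41. SRD5A2, a steroid 5-alpha-reductase, had 0.218 ± 0.0786 CPM in testis and 164, 88.5, 1240, 110 and 26.3 CPM in epididymis replicates 1 to 5 (adjusted p = 1.2e-05 by edgeR, log2 fold change -10.45 ± 1.24). It was highest in replicate 3, like GPX5, but lowest in replicate 5, where GPX5 was next to highest. SRD5A1, the other reductase, was higher in testis with 696 ± 236 against 37.4 ± 13.8 CPM (adjusted p = 1.2e-06 by edgeR).

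Of the ETS factors, ETV5 was highest in epididymis replicate 3, like GPX5 and 31.9% of all tested genes, and ETV4 and ETV1 were not. ETV5 had 78.3, 47.9, 119, 81.9 and 43.9 CPM in epididymis replicates 1 to 5. Its lowest value was thus in replicate 5, where GPX5 was next to highest. ETV4 (PEA3) had 71.1, 106, 21.97, 29.5 and 7.25 CPM in epididymis replicates 1 to 5 and 6.76 ± 1.30 in testis, and was called higher in epididymis (adjusted p = 0.00115 by edgeR, log2 fold change -2.80 ± 0.60). ETV1 was higher in testis (11.2 ± 4.13 against 3.66 ± 1.57 CPM, adjusted p = 0.00128 by edgeR). ETV5 was called higher in testis (adjusted p = 0.0254 by edgeR), but not when testis replicate 2, epididymis replicate 2 or epididymis replicate 5 was left out (adjusted p of 0.0502 to 0.0632 by edgeR). ESR1, the estrogen receptor, was not called (adjusted p = 0.120 by edgeR, log2 fold change 0.41 ± 0.23), but it was with DESeq2 size factors (log2 0.54, adjusted p = 0.048 by edgeR).

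**Figure D5:**
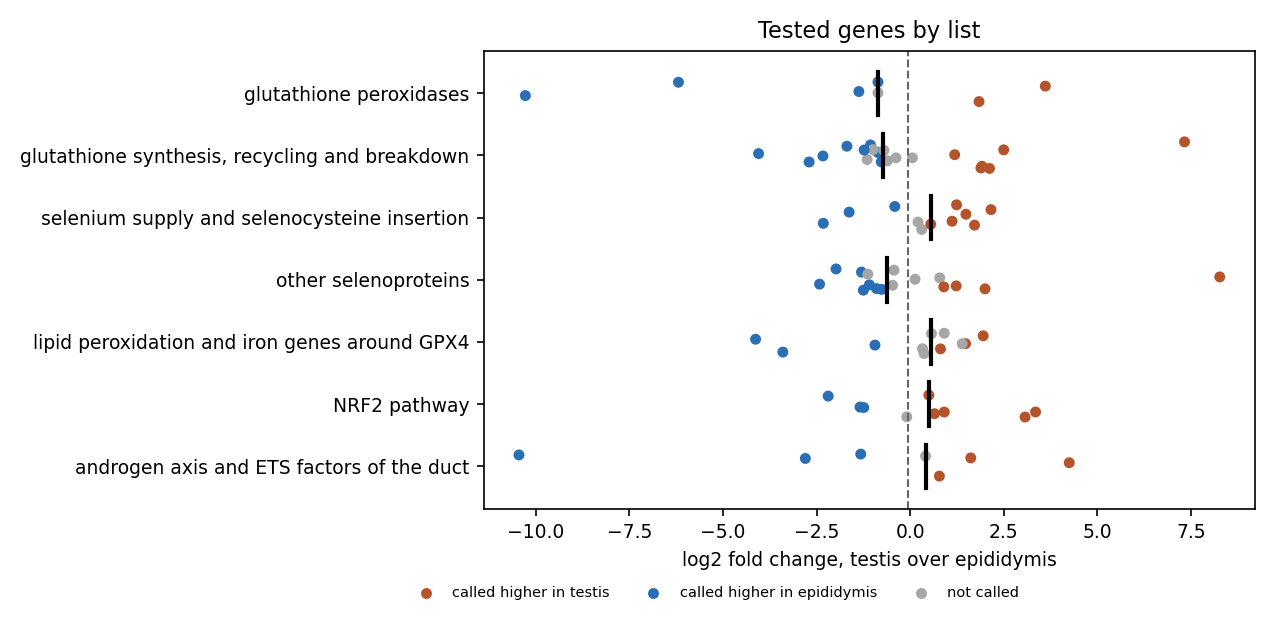
Log2 fold change, testis over epididymis, of each tested gene in the glutathione peroxidase family and 6 pathway lists, coloured by the edgeR call. Black bars are list medians, from -0.86 to 0.57, and the dashed line is the median of all tested genes, -0.07.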

How the data were processed

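The deposited files hold raw counts of reads for each gene, 1 library per file, made by the authors with cutadapt 3.0, STAR and featureCounts of Subread on build Sscrofa11.1, per the submitters' processing notes. Other versions, the annotation release, strand setting and treatment of multi-mapping reads were each not given in the sources used here, so overlapping genes may share reads. The other column is the gene length, per the file headers. Of 15226 rows named by an Ensembl identifier, 810 were given a symbol from a name table. Coordinates are those of the RefSeq gene table of Sscrofa11.1. No sequences were used.

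With R 4.3.3 and edgeR 4.0.16, counts were filtered with filterByExpr, scaled by TMM and tested with the robust quasi-likelihood test, tissue as the only term, with Benjamini-Hochberg adjustment over all 17225 tested genes. The code was tested on simulated data. Fold changes are after edgeR's shrinkage. Standard errors are approximate, from the unshrunk fold change and the F statistic. P-values measure the spread between boars without use of the pairs. The boar number in the headers pairs the libraries. Deviations of same-numbered libraries correlated at 0.0087 to 0.0893 across genes, which are not independent replicates. Testis replicates 2 and 5 correlated best with the epididymis library of their own number. Testis replicates 1, 3 and 4 did so with epididymis replicates 3, 2 and 5, so the pairing rests on the headers. 0 pairs of libraries were identical. The cDNA was amplified by PCR and reads carry no molecular identifiers, so floors cover counting error only. The lowest count in a highest over lowest ratio was set to at least 3 reads.

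Members and lists were chosen with earlier results of these data known. Named were all members, the up to 3 most abundant called genes per list and direction plus the most abundant not called, and the 10 genes nearest to GPX5; some of these are not reported here. GCLC, LRP8, the single marker genes and the neighbouring genes were named after their values were seen. Alternatives were no filter, DESeq2 1.42.0 and its size factors, library totals, the boar as a block, leaving out libraries, and testis replicate 4 alone.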

Additional observations from a re-analysis of the deposited data

Results flagged for a closer look

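GPX5 in epididymis replicate 3, at 2577 CPM, stood far from the other 4 libraries of its tissue, the next of which had 52.7 CPM. The gap was 0.98 of the whole range, above the critical value of 0.71 for 5 libraries. Of 16 groups of 5 libraries looked at, 8 genes in each tissue, this was the only one set apart in this way. Chance passes the critical value in about 1 in 20 groups, so 1 flag among 16 groups is not in itself unusual. That rate belongs to the critical value of 0.71. How often chance gives a gap of 0.98 was not tested. The rule was used on CPM without logs.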

How the results depend on the processing

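Across the alternatives run, GPX3 and GPX4 kept their direction and call in all 17, with log2 fold changes of 3.37 to 3.78 and 1.55 to 2.14. GPX1, GPX6 and GPX7 did so in 16 of 17 and GPX5 in 15 of 16, DESeq2 having given no p-value for GPX5 (log2 -10.18). The exception was testis replicate 4 as the only testis library, which takes its spread from the epididymis alone: -0.43 for GPX1, -12.95 for GPX5, -6.44 for GPX6 and -1.22 for GPX7, all not called. GPX8 ranged from -1.05 (called, without epididymis replicate 1) to -0.45 (not called, without epididymis replicate 3) among fits without 1 library. In the same 1-library comparison 2145 genes were called higher in epididymis, against 6506, and the list counts higher in epididymis fell to 2 (glutathione), 0 (selenium supply), 1 (other selenoproteins), 1 (NRF2) and 0 (androgen and ETS), and those higher in testis to 3 (glutathione) and 3 (NRF2). With the boar as a block, a replicate block, 1 selenium supply gene was called higher in epididymis, 5 genes around GPX4 and 3 of the NRF2 pathway higher in testis. It also ended the calls of LRP2, SEPHS1, KEAP1 and TEDDM1 among the genes named by rule, and that of SLC1A1, which turned. Without epididymis replicates 3 and 4 the latter counts were 6 and 3. Leaving out single libraries gave 3 to 5 genes around GPX4 and 3 to 5 of the NRF2 pathway higher in testis, and GPX5 ratios of 33.86 to 1655. Directions turned with testis replicate 4 alone for SELENOT (0.07) and MAFG (0.30), for MAFG with DESeq2 or its size factors (0.04 each), and without epididymis replicates 3 and 4 for FTL (-0.04). Without single libraries SLC1A1 ranged from -6.21 to 2.53 and RBM11 from -3.34 to 1.67. Both, whose epididymis level rests on replicate 3, turned to testis with the block (1.47 and 0.84), without epididymis replicate 3 (2.53 and 1.67) and without replicates 3 and 4 (2.45 and 1.54). Over 43 named genes outside the family, 655 of 728 alternative values kept direction and call, 56 lost the call, 6 gained one and 11 turned. DESeq2 size factors moved the median of all genes from -0.07 to 0.05. The cause was not tested. Depth limits GPX2 in both tissues and GPX5 and GPX6 in testis.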
